A study of Mus musculus with 12 samples.

Results

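TET2 sites at the genes of the phagocyte NADPH oxidase and of the Fc receptors were described in cultured mouse blood cells. The oxidase genes were Cybb, Cyba, Ncf1, Ncf4 and Rac2, and the receptor genes were Fcgr1, Fcgr2b, Fcgr3 and Fcer1g, together 9 of 21883 protein-coding genes. The study located TET2 by chromatin immunoprecipitation sequencing (ChIP-seq), which recovers the DNA fragments that an antibody pulls down with a protein. The antibody was raised against the N terminus of TET2. TET2 is an enzyme that oxidizes 5-methylcytosine in DNA. The first culture, called myeloid here, was of hematopoietic cells immortalized with the retroviral transgene MigR1-AML1-ETO, labelled Tet2fl/fl; AML1-ETO where TET2 was present and Tet2-/-; AML1-ETO where it was knocked out. The second, called AML here, was of acute myeloid leukemia cells without a transgene, labelled Npm1+/cA; Fl3+/ITD and, for the knockout, Npm1+/cA; Fl3+/ITD; Tet2-/-. Each culture gave 4 TET2 libraries, 2 with and 2 without full-length TET2, beside 1 input and 1 IgG control, and all cells grew in stem cell factor, interleukin 3 and interleukin 6. Whether the replicates came from separate animals or cultures, and how many clones or mice lay behind each culture, is not stated in the labels.

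Each culture is represented by 1 deposited list of sites, with a chromosome, a start and an end per site and no height, score or value per library. A site therefore has no replicate error, its depth is unknown, and a site missing from a list may lie below the authors' threshold rather than be free of TET2. The lists held 6895 AML and 18822 myeloid sites once overlapping sites of a list were joined, so the myeloid list was 2.73 times as long. A site counted for a gene when its midpoint lay inside the gene, or within 100 kb with an end of that gene the nearest among protein-coding genes. An AML and a myeloid site that overlapped by at least 1 bp are called shared. Positions are in mm10 and uncertain by 1 bp, since the files do not state whether starts count from 0 or 1.

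The phagocyte oxidase is an enzyme complex that neutrophils and macrophages assemble on engulfed microbes, where it passes electrons from NADPH to oxygen and makes superoxide. Its membrane core is made of the products of Cybb and Cyba, and cytosolic subunits, among them the products of Ncf1 and Ncf4, join it together with the GTPase Rac2 when the cell is activated. In humans, loss of CYBB, CYBA, NCF1 or NCF4 function causes chronic granulomatous disease. Fc receptors bind the constant part of antibodies on opsonized particles: Fcgr1 and Fcgr3 encode activating receptors for IgG, Fcgr2b encodes the inhibitory one, and Fcer1g encodes the gamma chain through which the activating receptors signal.

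All 9 genes had a TET2 site in the myeloid list, and 6 had one in the AML list. Of all protein-coding genes, 41.9% had a myeloid site and 19.7% an AML site. The 9 genes held 24 myeloid and 8 AML sites, where 3.98 and 1.42 would lie at the mean density of sites per base of gene territory (the sequence in which a midpoint counts for a gene). The median was 3 myeloid sites and 1 AML site per gene, against 0 and 0 over all protein-coding genes. The genes were proposed with earlier results of these data known, so these counts are descriptions and were not tested as a list. Myeloid sites outnumbered AML sites 3.0 to 1, close to the 2.73 of the whole lists. Of the 9 genes, 8 had more myeloid than AML sites, and Fcgr1 had 1 of each. The myeloid list is the longer one, and the same share over all genes was not counted.

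**Figure D1:**
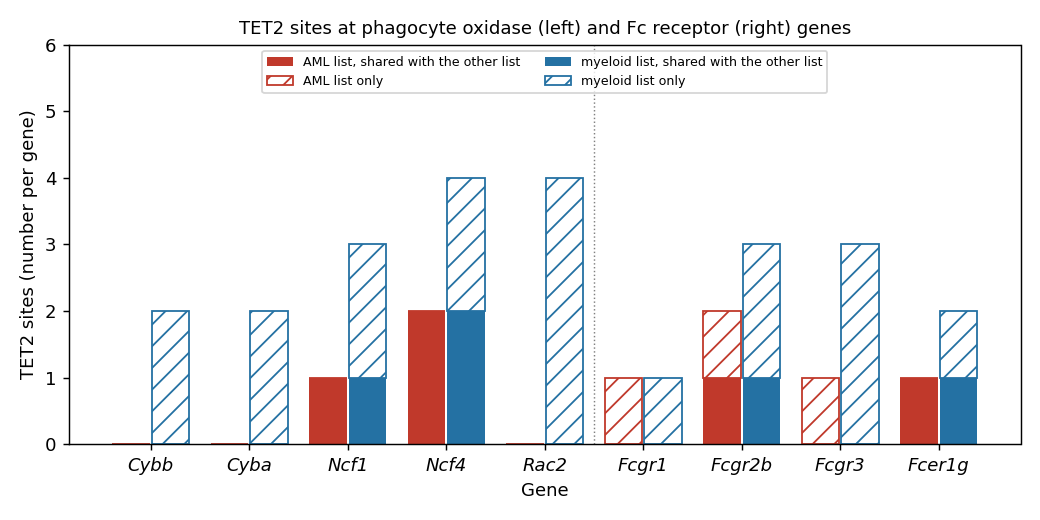
Number of TET2 sites (vertical axis) at each of the 9 genes (horizontal axis), in the AML list (red) and the myeloid list (blue); filled parts are sites shared between the lists and hatched parts are in 1 list only. Ncf4 had 2 AML and 4 myeloid sites, while Cybb, Cyba and Rac2 had myeloid sites alone.

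The AML list had sites at all receptor genes and at 2 of 5 oxidase genes. The 4 receptor genes held 5 AML and 9 myeloid sites. Of the 5 oxidase genes, Ncf1 and Ncf4 had AML sites, with 3 AML sites and 15 myeloid sites over the group. The 3 AML sites of the oxidase genes were all shared, and the 3 AML-only sites lay at Fcgr1, Fcgr2b and Fcgr3. Over the 9 genes 5 of 8 AML sites were shared (62.5%, exact Clopper-Pearson 95% interval 24.5 to 91.5, counting error only), an interval that holds the 71.4% of all AML sites. Of the 24 myeloid sites, 5 were shared (20.8%, 7.13 to 42.2), and of all myeloid sites 26.2%. With only sites inside a gene counted, 2 of 4 receptor genes (Fcgr2b and Fcer1g) and 1 of 5 oxidase genes (Ncf4) had an AML site. The difference between oxidase and receptor genes was not tested.

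Of the 7 genes with a known start, 5 had a myeloid site on or next to the start, and 0 had an AML site there. A RefSeq table of promoter windows, each from 250 bases before to 50 bases after a transcription start, held 7 of the 9 genes, all on the minus strand, the exceptions being Ncf4 and Rac2. A myeloid site overlapped the window of Cyba, Ncf1, Fcgr1, Fcgr3 and Fcer1g, 5 of 7, while 20.3% of the 17491 protein-coding genes in the table had such a site. No AML site overlapped a window of the 7 genes, and over the table the AML share was 1.94%. A count of 0 allows a share of up to about 42.9%, from 3 counts in 7. That limit is approximate and not a Clopper-Pearson one. At Ncf1, Fcgr1, Fcgr3 and Fcer1g the myeloid site covered the whole window of 300 bases, with its midpoint 1, 12, 34 and 21 bp from the start. At Cyba it overlapped 46 bases, all after the start, and its midpoint lay 417 bp downstream. These 5 promoter sites were all myeloid-only.

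**Figure D2:**
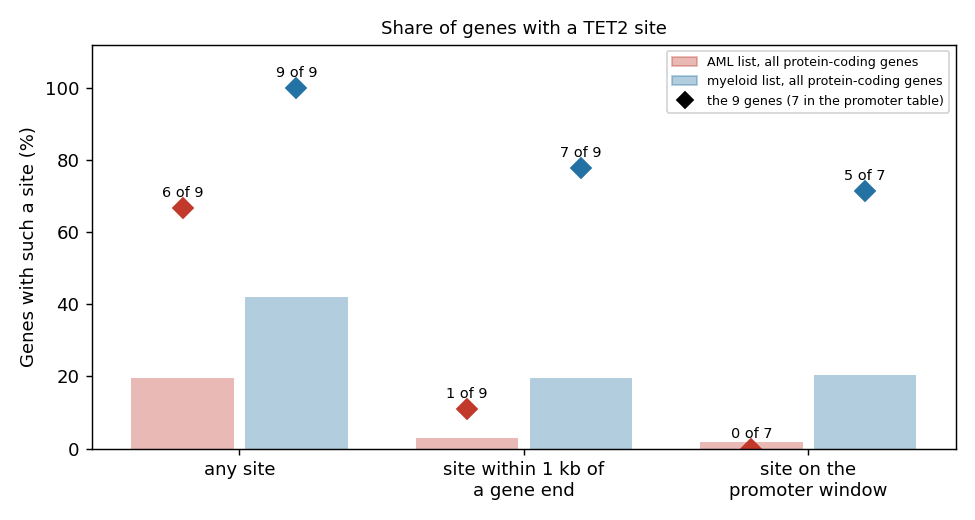
Percentage of genes (vertical axis) with any TET2 site, with a site within 1 kb of a gene end and with a site on the promoter window; bars are all protein-coding genes, diamonds the 9 genes (7 for the promoter window), red the AML and blue the myeloid list. For the promoter window the diamonds stand at 5 of 7 in the myeloid list and 0 of 7 in the AML list.

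Promoter sites were also mostly myeloid-only in the lists as a whole. Of all myeloid-only sites 21.3% lay on a promoter window, against 6.44% of the shared sites as drawn in the myeloid list, 5.97% as drawn in the AML list and 1.67% of the AML-only sites. At the 7 genes with an entry the counts were 5 of 13 myeloid-only sites (38.5%, Clopper-Pearson 13.9 to 68.4), 0 of 3 shared sites and 0 of 6 AML sites. The interval for the myeloid-only sites holds the 21.3% of the whole list. It counts clustered sites of the same gene as independent, and the genes were chosen with earlier results known. It therefore describes these counts and tests no difference.

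The sequences before the starts are shown because they are the stretches that the myeloid-only sites covered in whole, with Cybb beside them as a gene whose start had no site in either list. They are the 250 bases before the start from RefSeq (GRCm38.p6, the chromosome coordinates of mm10), on the minus strand, read 5′ to 3′ toward the gene, at chr5:134229626-134229875 for Ncf1, chr3:96293970-96294219 for Fcgr1, chr1:171059404-171059653 for Fcgr3, chr1:171234350-171234599 for Fcer1g and chrX:9469325-9469574 for Cybb. Capitals mark each match, on either strand, to 4 motifs: TGTGGT (the core that RUNX factors bind), GAGGAA (the core of PU.1 and other ETS factors), TTNNGNAA (C/EBP) and TTCNNNGAA (STAT).
Ncf1: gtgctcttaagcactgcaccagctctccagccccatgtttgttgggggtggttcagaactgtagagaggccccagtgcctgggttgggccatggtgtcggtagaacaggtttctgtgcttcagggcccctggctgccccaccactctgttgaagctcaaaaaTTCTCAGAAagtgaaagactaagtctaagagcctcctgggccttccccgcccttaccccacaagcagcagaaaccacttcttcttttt
Fcgr1: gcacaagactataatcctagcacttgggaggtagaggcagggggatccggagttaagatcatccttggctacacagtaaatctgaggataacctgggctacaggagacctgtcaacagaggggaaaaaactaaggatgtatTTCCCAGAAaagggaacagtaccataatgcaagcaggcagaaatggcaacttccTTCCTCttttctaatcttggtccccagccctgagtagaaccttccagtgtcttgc
Fcgr3: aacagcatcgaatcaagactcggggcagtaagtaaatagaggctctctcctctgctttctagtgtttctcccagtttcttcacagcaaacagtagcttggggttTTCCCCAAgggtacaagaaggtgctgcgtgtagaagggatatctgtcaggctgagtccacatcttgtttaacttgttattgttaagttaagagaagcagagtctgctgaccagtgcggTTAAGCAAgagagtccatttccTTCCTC
Fcer1g: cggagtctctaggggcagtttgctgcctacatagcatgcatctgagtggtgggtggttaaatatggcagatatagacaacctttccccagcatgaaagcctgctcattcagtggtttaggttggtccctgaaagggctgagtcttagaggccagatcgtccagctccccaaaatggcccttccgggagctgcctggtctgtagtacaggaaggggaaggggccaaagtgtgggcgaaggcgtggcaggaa
Cybb: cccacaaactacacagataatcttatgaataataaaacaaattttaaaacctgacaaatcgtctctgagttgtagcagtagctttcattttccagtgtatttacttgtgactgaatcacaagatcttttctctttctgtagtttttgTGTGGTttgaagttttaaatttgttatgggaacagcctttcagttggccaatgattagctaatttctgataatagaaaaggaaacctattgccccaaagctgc

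The 4 covered stretches had no motif in common. The ETS core stood on the opposite strand at Fcgr1, 55 to 50 bases before the start, and at Fcgr3, 6 to 1 bases before it, and 22.4% of all 20997 different promoter stretches of this length held it. The STAT motif stood at Ncf1 (88 to 80 bases before the start) and at Fcgr1 (109 to 101), against 6.61% of all. The C/EBP motif had 2 matches at Fcgr3, at 146 to 139 and 28 to 21 bases before the start, against 33.9% of all. The RUNX core, present in 12.3% of all, was at Cybb alone, 103 to 98 bases before its start. Fcer1g had no match. A match is a run of letters and was not shown to be bound. As background, the promoter of human FCGR1A is known to hold a PU.1 site and an interferon gamma response region.

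The 7 promoters held fewer CG dinucleotides than the median promoter. CG is the setting of most 5-methylcytosine in the genome. The promoters held 1 at Cybb and Fcgr1, 2 at Ncf1, 4 at Fcgr3, 5 at Fcgr2b and Fcer1g and 6 at Cyba in the 250 bases. The median was 10 over all promoter stretches and 18 over those with a myeloid site on the window, the class of 5 of the 7. The share of all promoter stretches with fewer CG ran from 6.52% for Cybb and Fcgr1 to 37.2% for Cyba.

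The 2 membrane subunits had no AML site, and of all protein-coding genes only 19.7% had one. Cybb (chromosome X, 9435252 to 9487766), which encodes the catalytic subunit, had 2 myeloid-only sites, at 9448187 to 9448911 and 9460423 to 9461115. They lay inside the gene, 20.8 and 8.55 kb downstream of the annotated start. That start is at 9469324, while the gene as annotated reaches farther, to 9487766, so both distances hold for that start alone. The nearest AML site was 1.20 Mb away, and the 100 kb on either side of Cybb held no other site of either list. Its territory of 137 kb is the largest of the 9, with 0.46 AML sites at mean density, so a count of 0 says little. Cyba (chromosome 8, 122424771 to 122432940), which encodes the partner that stabilizes the catalytic subunit, had 2 myeloid-only sites at 122429819 to 122430779 and 122432111 to 122432936. The first lay 2.64 kb downstream of the start and the second 0.417 kb downstream. Its territory is small (9.1 kb), because an end of Mvd lies 0.656 kb and an end of Il17c 1.13 kb from it. At mean density it would hold 0.03 AML and 0.085 myeloid sites, so 0 AML sites says little here too.

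The cytosolic subunits carried the shared oxidase sites. Ncf1 (chromosome 5, 134220053 to 134229628), which encodes the organizer subunit, had 1 AML site at 134232436 to 134233229, 3.21 kb upstream of its start. A myeloid site at 134232384 to 134233257 contained it whole, with midpoints 12 bp apart. Nearer to the gene the myeloid list had 2 more, at 134229261 to 134229987 on the start and at 134231229 to 134231941, 1.96 kb upstream. Thus at Ncf1 the distal site was shared and the 2 nearer ones were myeloid-only. Of all protein-coding genes 10.2% had 3 or more myeloid sites.

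Ncf4 (chromosome 15, 78244164 to 78262582), whose product binds a phagosomal membrane lipid, had the most sites together with the widest ones. Its AML sites lay inside the gene at 78247446 to 78248218 and 78257604 to 78258806, and both were shared, with midpoints 7 and 54 bp from those of the myeloid sites. The second is 1202 bp wide among AML sites and 1400 bp among myeloid sites, each joined from 2 overlapping deposited sites. The 2 myeloid-only sites lay at 78244394 to 78245317, 0.691 kb inside the lower-coordinate end, and at 78267625 to 78268453, 5.46 kb beyond the other end. Of all genes 6.53% had 2 or more AML sites and 5.65% had 4 or more myeloid sites. The same 3 counts (2 AML, 4 myeloid, 2 shared) occurred at 101 other genes. Of those, Gfi1, Aatk and Dcaf12 were closest to Ncf4 in territory, at 46.0, 48.8 and 49.2 kb against 47.3 kb.

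Rac2 (chromosome 15, 78559169 to 78572783), which encodes the blood cell form of the RAC GTPases, had 4 myeloid sites and 0 AML sites. Inside the gene were those at 78563836 to 78564578 and 78571243 to 78572174. Another lay across the higher-coordinate end, at 78572434 to 78573170, with its midpoint 19 bp from that end, and the last at 78581055 to 78581726, 8.61 kb beyond it. All 4 were myeloid-only, more than at any other of the 9 genes. Rac2 lay in a stretch of 309.9 kb without an AML site, between sites assigned to Csf2rb2 and Cyth4, in which the myeloid list had 15 sites. How often stretches of that length lack an AML site was not counted. At mean density the territory of Rac2 (30.6 kb) would hold 0.10 AML and 0.29 myeloid sites, so its AML count of 0 says little.

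**Figure D3:**
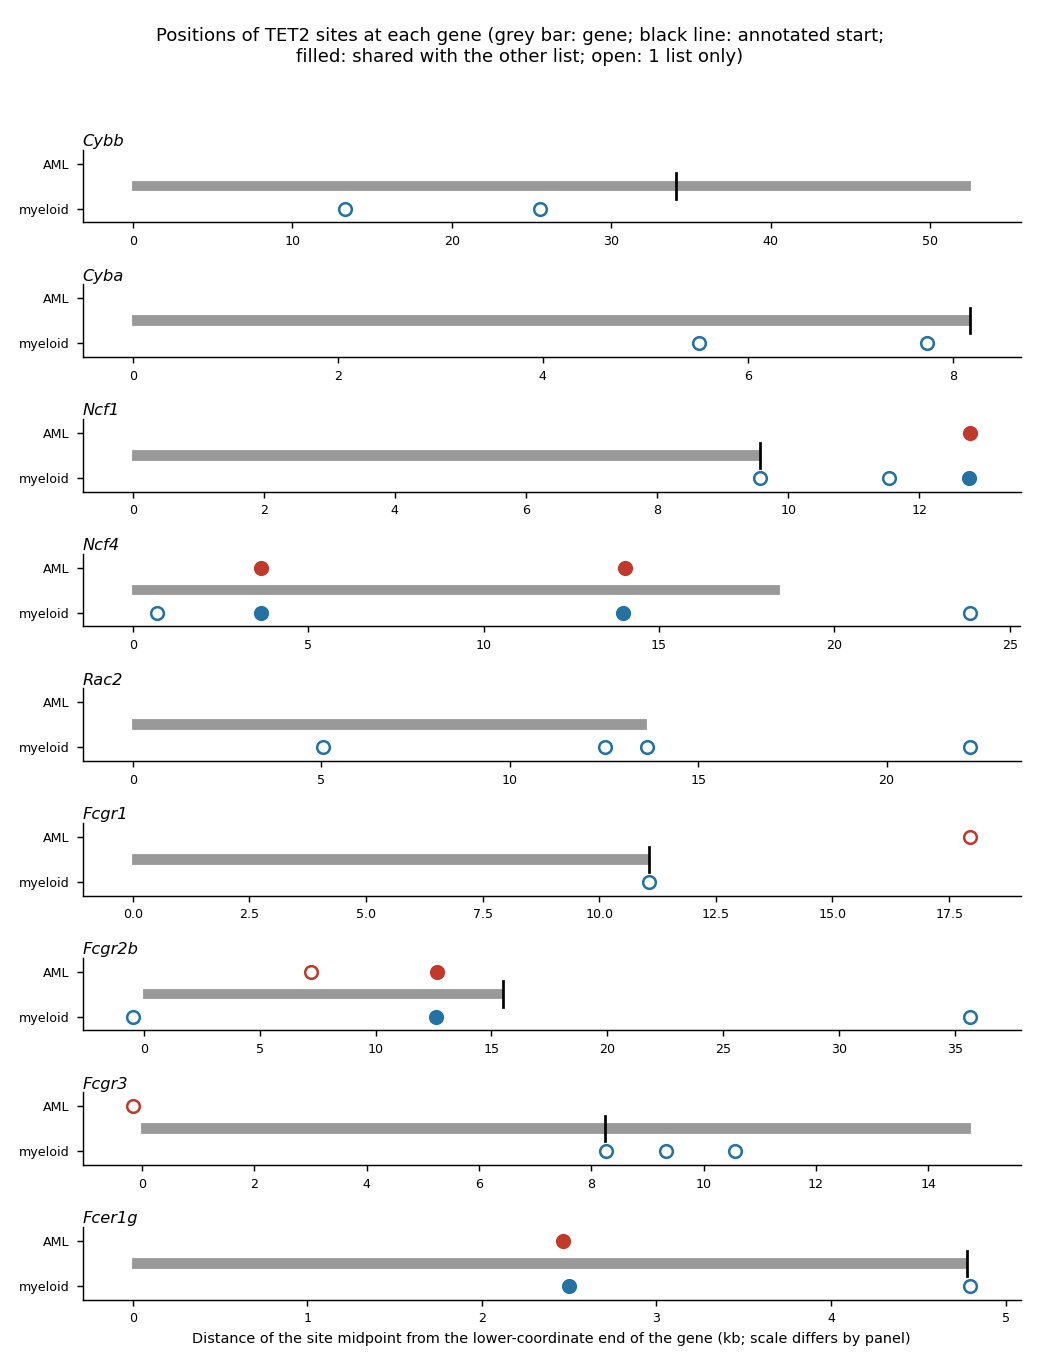
Midpoints of AML (red, above) and myeloid (blue, below) sites along each gene, in kb from the lower-coordinate end; the grey bar is the gene, the black line the annotated start where the promoter table gives one, filled points are shared and open points are in 1 list only. Open myeloid points sit on the start of Ncf1, Fcgr1, Fcgr3 and Fcer1g, and the filled points lie 2.28 kb or more from any end of their gene.

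Among the receptor genes, the lists occupied different places at Fcgr1 and Fcgr3. Fcgr1 (chromosome 3, 96282909 to 96293969), which encodes the high-affinity IgG receptor, had 1 AML-only site at 96300446 to 96301279, 6.89 kb upstream of the start. Its 1 myeloid site, at 96293590 to 96294372, lay on the start. Fcgr3 (chromosome 1, 171051169 to 171065915), a low-affinity activating receptor gene, had 1 AML-only site at 171050594 to 171051411, across the end of the gene, 8.40 kb downstream of the start. Its 3 myeloid-only sites lay at 171059079 to 171059796 on the start, and at 171060110 to 171060868 and 171061386 to 171062056, 1.09 and 2.32 kb upstream of it. The gene as annotated reaches farther than the starts of the promoter table, so these 3 sites count as inside Fcgr3 while lying at or before a start. The midpoints of the AML site and of the nearest myeloid site of Fcgr3 were 8.44 kb apart.

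Fcgr2b and Fcer1g each had a shared site inside the gene. Fcgr2b (chromosome 1, 170960558 to 170976071), the inhibitory receptor gene, had AML sites at 170967376 to 170968118, AML-only and 8.32 kb downstream of the start, and at 170972846 to 170973570, shared and 2.86 kb downstream. The matching myeloid site lay at 170972777 to 170973542, with an overlap of 696 bp. The myeloid-only sites lay at 170959739 to 170960407, 0.485 kb past the end of the gene, and at 170995872 to 170996578, 20.2 kb upstream of the start. Of the 7 genes with a known start, Fcgr2b and Cybb were those with no site on the promoter window. Fcer1g (chromosome 1, 171229572 to 171234349), the signalling chain gene, had 1 AML site at 171231629 to 171232447, 2.31 kb downstream of the start, and a myeloid site at 171231630 to 171232516 that overlapped it by 817 bp. Its second myeloid site, at 171233985 to 171234756, was myeloid-only and lay on the start, 21 bp upstream by its midpoint.

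Over all 9 genes, shared pairs were close to identical in place. The 5 pairs overlapped by 696 to 1202 bp, with midpoints 7 to 54 bp apart. They were not compared with the shared pairs of other genes. Myeloid-only sites lay from 1.25 kb to 1.21 Mb from the nearest AML midpoint (median 9.49 kb), and 5 of the 19 had one within 5 kb. Within 1 kb of an end of their own gene lay 7 of 24 myeloid sites (29.2%, Clopper-Pearson 12.6 to 51.1) and 1 of 8 AML sites (12.5%, 0.316 to 52.7), that of Fcgr3. Of all sites, 22.6% of myeloid and 8.82% of AML sites lay within 1 kb of the nearest gene end, and both shares fall inside those intervals. By gene, 7 of 9 had such a myeloid site and 1 of 9 such an AML site, against 19.5% and 2.84% of all genes. The sites of the 9 genes were 668 to 1400 bp wide in the myeloid list (median 756.5, and 709 in the whole list) and 724 to 1202 bp in the AML list (median 805, and 721 in the whole list).

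The difference between the cultures was tested gene by gene on unshared sites. Fisher's exact test (two-sided) of AML-only against myeloid-only sites, with Benjamini-Hochberg adjustment over the 8668 genes with an unshared site, called 3 genes (0.0346%) as higher in AML, 0 (0.0%) as higher in myeloid and none of the 9. At an unadjusted p under 0.05 it called 130 genes as higher in AML (1.5%), 0 as higher in myeloid and 0 of the 9. The smallest unadjusted p among the 9 was 0.233 at Fcgr1 (exact test, odds ratio 7.05 for AML-only over myeloid-only, from 1 site against 1; adjusted p = 1.0). Fcgr2b and Fcgr3 had odds ratios of 3.52 and 2.35 (unadjusted exact p = 0.328 and 0.412; adjusted p = 1.0 for each). The test could not have called Rac2. A gene with myeloid-only sites alone needs 27 of them for an unadjusted p under 0.05, and the most unshared sites at any gene was 18. In the other direction 2 AML-only sites and no myeloid-only site reach an unadjusted p under 0.05, and none of the 9 genes had more than 1 AML-only site. A missing call at these genes does not show that the cultures are alike there.

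**Figure D4:**
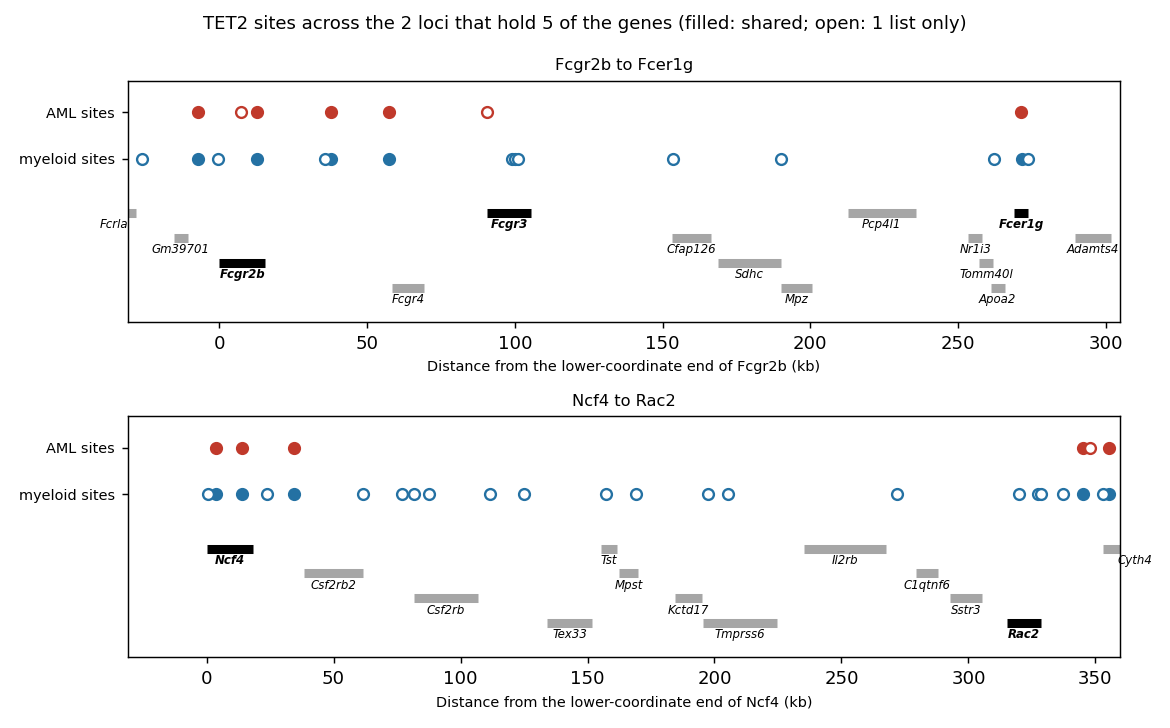
Midpoints of AML (red) and myeloid (blue) sites across the 2 loci that hold 5 of the 9 genes, in kb from the lower-coordinate end of Fcgr2b (top) and of Ncf4 (bottom); filled points are shared, open points are in 1 list only, and bars are protein-coding genes drawn for orientation (black for the described genes). The AML row is empty from Csf2rb2 to Cyth4, a stretch of 309.9 kb around Rac2. How often such stretches occur was not counted.

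Fcgr2b, Fcgr3 and Fcer1g lie within 274 kb of each other on chromosome 1, and their neighbour Fcgr4, a further activating IgG receptor gene, had 2 sites in each list, all shared. From the lower end of Fcgr2b to the upper end of Fcer1g the AML list had 6 sites, 4 of them shared. The myeloid list had 11 there, 6 of them counted for the described genes. Across the 329 kb from Ncf4 to Rac2 on chromosome 15 the AML list had 3 sites, all shared, and the myeloid list 18. Of those 18, 6 were counted for Ncf4 or Rac2. Sites of the described genes that lie beyond the outer ends of each span are left out here. Genes in the same locus share neighbourhoods and are not independent of each other.

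Other genes of the oxidase and of Fc receptor function were counted by group, with no test between groups. Over all protein-coding genes, 41.9% had a myeloid site and 19.7% an AML site. All 10 genes of signalling below the receptors (kinases, phosphatases, adaptors, the phospholipase gene Plcg2 and the exchange factor gene Vav1) had a myeloid site and 8 also had one from AML, with 44 myeloid and 15 AML sites, 13 of the latter shared. Their median was 4.5 myeloid sites and 1 AML site per gene. At mean density they would hold 0.19 (Ptpn6 and Lat2) to 1.7 (Syk) myeloid sites each, so medians of different groups do not compare density. Syk, the kinase that docks on the gamma chain, had 3 AML and 7 myeloid sites. Inpp5d, the lipid phosphatase through which Fcgr2b inhibits, also had 3 and 7, and the kinase gene Lyn had 1 and 8. Vav1 and Lat2 had no AML site and 2 and 1 myeloid sites.

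Among partners of the oxidase, the GTPase genes Rac1 and Rap1a had 1 site in each list, and Cybc1, a chaperone of the membrane subunits, had 0 in either. Of 9 genes of oxidases used mainly outside phagocytes, 0 had an AML site, and Nox1 and Noxa1 had 1 myeloid site each. With 19.7% of all genes holding an AML site, a count of 0 among 9 genes says little. Of 12 other Fc receptor and related genes, 5 were occupied in each list, against 41.9% of all genes in the myeloid and 19.7% in the AML list. For the myeloid list these genes are thus near the share of all genes. They held 6 AML and 7 myeloid sites, and Fcgr4 (2 and 2) and Fcrl1 (1 and 2) were the highest. Fcer1a, the IgE-binding chain of the mast cell receptor, had 0 in either list, and Ms4a2, its beta chain, had 1 in each. Genes without an unshared site, such as Fcgr4 and Rap1a, did not enter the gene-by-gene test, and 0 of those that did passed it.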

How the data were processed

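TET2 ChIP-seq was done in 2 mouse cultures, with 12 libraries in all: 8 with the TET2 antibody and 4 controls. The medium held 50 ng/ml stem cell factor and 10 ng/ml each of interleukin 3 and interleukin 6, per the labels' protocols. Cells were fixed with 2 mM disuccinimidyl glutarate and then 1% formaldehyde, and chromatin was sheared to 200 to 500 bp. Such double fixation also holds proteins that reach DNA indirectly. Trimmomatic, Bowtie2, MACS2 and the mm10 build are named in the submitters' processing notes. Not given in the sources used here: versions, thresholds, pooling of replicates, and how knockout and control libraries were used. What the authors deposited are, per the file headers, only coordinates (chromosome, start, end).

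Sites on chromosomes 1 to 19, X and Y were used (1 AML site elsewhere was left out), and overlapping sites of a list were joined, taking 7002 AML and 19706 myeloid sites to 6895 and 18822. Genes came from a RefSeq table and promoters from a RefSeq promoter table, each of GRCm38.p6; all further listed genes matched, and some are not reported here. Counts were made with Python 3.11.15, pandas 2.3.3 and NumPy 2.4.6, and Fisher's exact test with SciPy 1.17.1, checked on simulated sites. The members, gene lists and motifs were chosen with earlier results of these data known. All 9 members, the listed pathway genes and the nearest neighbours were named by a written rule, and the most alike genes by equal counts and closest territory. Intervals cover counting error over sites, which cluster and are not independent. No value per library was used, so wild-type and knockout signal was not compared.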

Additional observations from a re-analysis of the deposited data

How the results depend on the processing

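The counts at the 9 genes changed little with the assignment. Limits of 50 or 20 kb, assignment to the nearest gene end alone, competition by all annotated genes, sites left unjoined or joined within 500 bp, site edges in place of midpoints, stricter sharing, and gene ends set at 0.5 or 2 kb kept each total within 1.5 times its value. Over these, AML sites ran from 8 to 9, myeloid sites from 21 to 25 and shared sites from 5 to 6. Counting only sites inside a gene gave 5 AML sites, 3 genes with an AML site, 15 myeloid sites, 3 myeloid and 0 AML sites within 1 kb of a gene end; fewer sites can count under that rule. Of 234 values of single genes, 9 moved by over 1.5 times, all under it. Promoter counts, an analysis added after the promoter table was seen, stayed at 5 and 0 with a start within 1 or 0.5 kb of a site midpoint. The gene-by-gene test called 3 genes among those with at least 5 unshared sites, where none of the 9 enters, and 2 with shared sites counted in both lists. No paired analysis was possible because the lists hold no value per replicate; for the same reason no replicate could be left out, and without scores no stricter peak threshold could be set. Depth is unknown.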

Other observations

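Between Ncf4 and Rac2 lie the beta chain genes of the interleukin 3 receptor, one of the cytokines in the medium. Csf2rb had 4 myeloid sites and 0 AML sites, and Csf2rb2 had 2 and 1, the AML site shared. Cyth4, on the far side of Rac2, had 4 myeloid and 3 AML sites, 2 of the AML sites shared. Chromosome X, which holds Cybb, carried 105 AML and 287 myeloid sites, 1.52% of each list, and 57 were shared.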
